A study of Mus musculus with 16 samples.

Results

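Immune cells of control B16 melanomas were compared between mice given an antibody to CD40 and mice given an isotype antibody. Control tumours are those with an intact B2m gene, whose product joins every MHC class I heavy chain. B16 is a melanoma line of the C57BL/6 mouse, and Bro4.1 is the name the design text gives to the subline used. Per the design text, 1000000 cells were placed under the skin of C57BL/6J mice, which then received 100 µg of the CD40 antibody or of a rat IgG2a by the intraperitoneal route on days 6, 9 and 12 before tumour collection on day 14. Neither the clone of the CD40 antibody nor the age of the mice is given in the sources used here. The genotype label names the mouse, but B2m was present or lost in the implanted cells according to the design text, which was followed.

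The comparison took the 2 lanes of the wild-type CD40 group and the 2 lanes of the wild-type isotype group. Requiring 200 or more detected genes and no more than 10% mitochondrial UMIs left 52798 barcodes of the 99357 of the whole series. A mouse is a hashtag within a pool, and 42126 of the 73626 cells with an assigned mouse belonged here, from 7 of 16 mice. The labels list 3 hashtags, but isotype pool 1 has 3 hashtag rows in the files and the other control lanes have 2, and mice were counted from these rows. The 5 isotype mice gave 18358 cells, mice 1 to 3 from pool 1 and mice 4 and 5 from pool 2. The 2 CD40 mice gave 23768 cells, 6280 from mouse 1 and 17488 from mouse 2, all from 1 pool that was loaded on 2 lanes, which the labels call technical replicates. Treatment with CD40 and membership of that 1 pool therefore cannot be told apart, and the lanes show the error of loading and sequencing only. All tumours were digested with collagenase and DNase and enriched for CD45, the surface protein of blood-derived cells, so the shares below are shares of selected cells.

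CD40 is a receptor of the TNF receptor family on dendritic cells, macrophages, monocytes and B cells. Its ligand, CD40L, appears on activated CD4 T cells, and binding starts NF-kB signalling in the cell that carries CD40. In dendritic cells this is the classical licensing signal, which raises MHC molecules, the costimulatory ligands CD80 and CD86 and the cytokine IL-12 and so lets them prime CD8 T cells. Antibodies that cross-link CD40 stand in for the ligand. B16 melanomas hold many macrophages and monocytes and few T cells when untreated.

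The 4 control lanes held 45985739 to 80047500 unique molecular identifiers (UMIs, the counted transcript molecules), with a median per barcode of 2756 and 3348 in the isotype lanes and 2136 and 1715 in the CD40 lanes. Between 3.63% and 15.3% of kept barcodes carried 2 hashtags and were removed as doublets. In isotype pool 1, 3662 of 15652 kept barcodes had no assignable hashtag, from 5.66% of its neutrophil-like cells to 48.2% of its NK-like cells with the rare mast cells or basophils aside, against 486 to 874 barcodes in each of the other control lanes. Pairs of control lanes shared 56 to 77 barcode sequences, and the technical pair shared 70. Clustering of all 88292 cells that were not hashtag doublets gave 30 clusters, of which 5 stayed unnamed. The others were named "like" a cell type from its markers, and 12 of the names are haematopoietic classes. The names below are short for these "-like" classes. The largest unnamed cluster mixed T cell and myeloid transcripts and held 4.54% and 10.4% of the cells of the CD40 mice and 2.08% to 7.23% of those of the isotype mice.

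Some differences ran through all cell types and are given before the results. Over 8 cell sets, 51 genes rose and 9 fell in at least 6. Among them were transcripts of ribosomal proteins and of ATP synthase, with log2 changes of 1.15 to 1.44 for Rpl38, 0.90 to 1.40 for Rps28 and 0.83 to 1.12 for Atp5e. Ccl5 rose in 8 of 8 sets, Hcst and S100a6 in 7 and Cxcr6 in 6 of 7. Ccl2 and Ccl7 fell in 7 and Slfn5 in 6. The changes of all these genes given below are thus not particular to a single set. The lowered ones included mt-Atp6, at -1.38 to -0.85, and Gm42418, which overlaps ribosomal RNA sequence, at -1.76 to -1.01. Another mitochondrial gene, mt-Co1, rose in 7 of 8 sets, at 0.28 to 0.79. The CD40 effect was also set against that in B2m-null tumours, whose cells lack B2m. The median difference, control minus B2m-null, was 1.56 for Rpl38, 1.56 for Rps28, 0.86 for Atp5e and -1.50 for mt-Atp6. Their median control effects were 1.26, 1.20, 0.99 and -1.02. For Gm42418 the difference was 0.44 and for Ccl5 -0.02. It was 1.45 for Hcst, 0.83 for S100a6, 0.75 for Cxcr6, -0.97 for Ccl2, -1.13 for Ccl7 and -0.44 for Slfn5. The median control effects of these 6 were 1.82, 1.13, 1.935, -1.67, -1.935 and -1.28. Genes whose longest annotated transcript has at most 600 bases had a median log2 change of 0.49 in macrophages, 0.56 in monocytes, 0.47 in dendritic cells and 0.29 in CD8 T cells, beside medians near 0 over all genes. In macrophages 37.8% of them rose. The next longer of 5 length classes, up to 1000 bases, had a median of 0.22 in macrophages but -0.30 in CD8 T cells, where the longest class had 0.11. Shifts by transcript length, not alike between sets, thus moved with the treatment in 1 pool, and their part in the results was not tested beyond an offset for length, which kept 165 of the 171 calls on named genes. The checks that follow have limits. With the lane as the unit, the 2 technical CD40 lanes were summed into 1 unit that holds both CD40 mice. The spread of that unit comes from the other groups alone. Leaving out a CD40 mouse leaves 1 in that group, so the other groups give its spread. Of the same calls, 87 held whichever single mouse was left out, 142 with the lane as the unit and 138 of the 160 that could be tested in thinned cells.

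**Figure D1:**
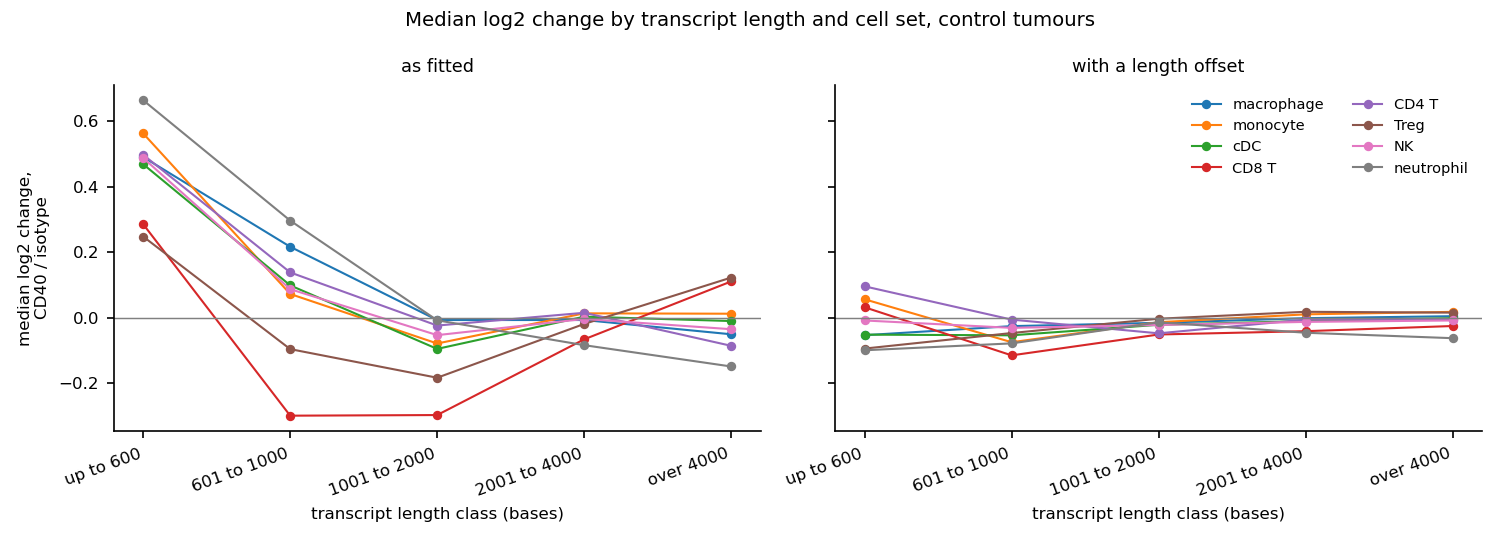
Median log2 change of CD40 against isotype (y axis) for genes in 5 classes of transcript length in bases (x axis), 1 line per cell set, as fitted (left) and with an offset for length (right). As fitted, the shortest class lay above 0 in each set, at 0.49 in macrophages and 0.66 in neutrophils.

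The first question was which immune cells made up the tumours. CD8 T cells were higher after CD40, at 35.6% and 43.3% of the named haematopoietic cells in CD40 mice 1 and 2. The 5 isotype mice had 15.4%, 4.62%, 5.83%, 6.99% and 6.35%, in the order of mice 1 to 5. Both CD40 mice thus lay above the highest isotype mouse, and the mean was 5.03 times the isotype mean of 7.84% ± 4.33 (SD, n = 5). Unnamed clusters are outside these shares. The unnamed cluster led by Tcf7 and Satb1 had marker scores of 1.45 for CD8 T and 1.41 for gamma-delta T cells. It held 2.88% and 1.59% of all cells of the CD40 mice and 2.3% to 6.5% of those of the isotype mice. The largest unnamed cluster, described above, also scored highest for CD8 T cells. The part of leaving these clusters out was not tested. CD4 T cells without regulatory T cells were also higher, at 5.07% and 2.57%, where the isotype mice had 0.610%, 0.994%, 0.268%, 0.958% and 1.01%. Regulatory T cells, the suppressive CD4 cells marked by Foxp3, were lower, at 1.13% and 1.08% against 3.77%, 2.37%, 2.54%, 2.13% and 2.44%. The 2 groups did not overlap in any of these 3 classes.

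Dendritic cells, which carry antigen to T cells, were scarce after CD40. cDC1, the cross-presenting type, made up 0.493% and 0.381% in the CD40 mice and 3.94%, 5.64%, 2.21%, 3.11% and 6.07% in the isotype mice. cDC2 made up 0.712% and 0.252% against 2.00%, 6.05%, 2.11%, 2.75% and 4.41%. The Ccr7-positive mature dendritic cells stood at 0.182% and 0.266% against 5.66%, 6.02%, 3.65%, 3.45% and 6.46%, the lowest ratio of means of the 12 classes at 0.0444. Plasmacytoid dendritic cells, known as makers of type I interferon, were at 0.0547% and 0.0953% against 0.887% to 2.43%. In cell numbers, the CD40 mice gave 27 and 56 cDC1, 39 and 37 cDC2 and 10 and 39 mature dendritic cells, so values within these classes rest on few cells.

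Monocytes made up 8.47% and 4.99% in the CD40 mice and 13.9% to 31.5% in the isotype mice, again without overlap. Macrophages were the largest isotype class and overlapped between the groups, at 40.9% and 44.4% against 47.6%, 32.0%, 56.1%, 59.2% and 43.3% (exact permutation p = 0.571). NK cells, at 6.13% and 2.27% against 3.35% to 7.42%, and neutrophils, at 1.24% and 0.456% against 0.222% to 1.74%, overlapped as well. With 2 mice against 5 there are 21 ways to choose the CD40 mice, so the two-sided exact permutation test could not go below p = 0.0952. The 9 classes without overlap reached that value, 0.127 after adjustment over 12 classes, and no share passed the threshold. Between the technical lanes the CD8 T share differed by 5.05 and 10.3 points in the 2 CD40 mice, with macrophages higher by 5.49 and 10.4 points in the second lane. For CD8 T cells these differences were smaller than the 31.6 points between the group means, while for macrophages they exceeded the group difference of -5.01 points. Shares of one class also move with those of the others, and the counts do not show how many cells a tumour held.

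**Figure D2:**
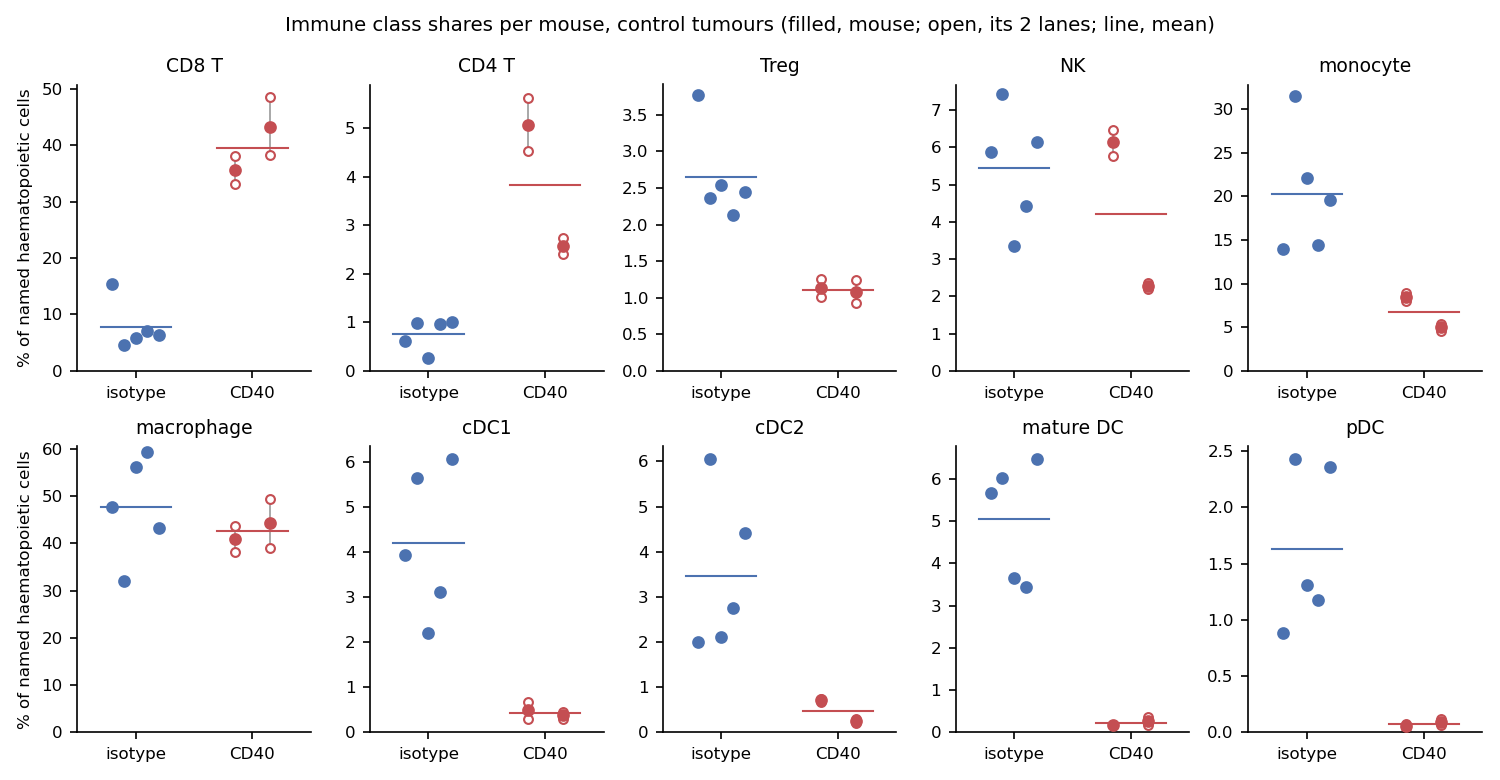
Share of each of 10 cell classes among named haematopoietic cells in percent (linear axes, 1 panel per class). Filled points are mice, isotype (n = 5) and CD40 (n = 2), open points the 2 lanes of a CD40 mouse, and lines group means. CD8 T and CD4 T cells lay above, and the dendritic classes, monocytes and regulatory T cells below, every isotype mouse.

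Macrophages after CD40 carried more transcripts of Saa3, Nos2 and Lyz1 and of MHC class I genes, and fewer of the type I interferon-stimulated and cell cycle genes. Genes were tested on UMIs summed per mouse with edgeR's quasi-likelihood test over all genes of a cell set, and adjusted p-values are Benjamini-Hochberg values with a threshold of 0.05. Levels are CPM, the UMIs of a gene per 1000000 UMIs of a mouse's cells of that set, with the totals scaled by edgeR's TMM factors. Summed levels of marker lists use the totals without that scaling, so the 2 kinds of value are not on one scale. In macrophages 2723 of 12290 genes passed, or 22.2%, with 11.2% raised and 10.9% lowered, while the mice of the 2 groups did not overlap in 40.2% of all genes. With so many calls, a list with a share near these values is no result about that list. Without CD40 mouse 1 the count was 1023 and without mouse 2 it was 1142. The macrophage clusters were filled differently. Shares of a class by cluster, here and below, pool the cells of all mice of a group. Of the CD40 macrophages 2241 came from mouse 1 and 6513 from mouse 2. The cluster led by H2-M2 and Gpnmb held 48.8% of the CD40 macrophages, with a median of 2327 UMIs. It held 5.88% of the isotype ones, with 1233 UMIs. With finer clusters (resolution 2), a Gpnmb-led cluster of 3171 cells with a median of 1040 UMIs stayed unnamed. The cluster led by Mmp12, Mmp13 and Arg1 held 9.41% and 28.7% of the CD40 and isotype macrophages. The one led by Vcam1, Stab1 and Mrc1 held 10.9% and 24.5%.

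Saa3, an acute-phase serum amyloid protein made by activated macrophages, stood at 309.5 and 489 CPM in the CD40 mice. In the isotype mice it had 9.88, 33.5, 39.9, 24.1 and 33.7 CPM. Both CD40 mice were far above all isotype mice, and the log2 change was 3.79 ± 0.39 (SE, adjusted p = 3.32e-06). Nos2, the inducible nitric oxide synthase of macrophages that respond to interferon-gamma, had 166 and 223 CPM against 91.1, 37.8, 68.3, 62.3 and 22.1 CPM, with a log2 change of 1.80 ± 0.54 (SE, adjusted p = 0.0248). Lysozyme Lyz1 rose by 2.59 ± 0.42 (SE, adjusted p = 3.39e-04), although its reads may be shared with the near-identical Lyz2. H2-M2, a non-classical MHC class I gene, stood at 41.9 and 77 CPM against 3.04 to 11.6 CPM and rose by 3.17 ± 0.54 (SE, adjusted p = 6.14e-04). Tnfaip2, a gene induced by TNF, rose by 1.93 ± 0.16 (SE, adjusted p = 4.31e-07) and the lipid phosphatase Plpp3 by 2.01 ± 0.26 (SE, adjusted p = 3.67e-05). Complement C3, the central protein of the complement cascade, had 148 and 197 CPM against 36.5 to 81.2 CPM (log2 change 1.69 ± 0.33 SE, adjusted p = 0.00181). Fxyd2, a regulator of the sodium pump, and Gng11, a G protein subunit, rose by 2.54 ± 0.39 (SE, adjusted p = 2.45e-04) and 2.13 ± 0.32 (SE, adjusted p = 1.71e-04).

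The share of cells with a transcript was compared after each cell was thinned to 1000 UMIs. Cells with fewer were left out, 18.6% and 15.1% of the macrophages of CD40 mice 1 and 2 and 4% to 9.31% of those of the isotype mice, so that total UMIs were matched but the cells kept were not all cells. A Saa3 transcript was found in 11.6% and 15.5% of the macrophages of the CD40 mice and in 1.13% to 2.51% in the isotype mice. CD8 T cells, which should lack it, had 0.839% and 0.177% in the 2 groups. Nos2 was found in 10.0% and 11.7% against 2.72% to 5.78%, with 0.394% and 0.149% in CD8 T cells. H2-Ab1 was found in 67.9% and 75.3% against 45.2% to 58.0%, with 5.96% and 6.85% in CD8 T cells. Each of these 3 had the smallest exact permutation p of the design, 0.0952, or 0.209 adjusted.

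Most MHC class I genes and a few class II genes stood higher. Of 10 MHC class I genes tested, 7 rose and none fell, with a median log2 change of 0.57 where all genes tested had -0.02. B2m itself stood at 5761 and 6255 CPM against 5020, 3625, 3575, 3997 and 3533 CPM, so that both CD40 mice exceeded every isotype mouse (log2 change 0.61 ± 0.16 SE, adjusted p = 0.0134). H2-K1, a classical heavy chain, rose by 0.57 ± 0.19 (SE, adjusted p = 0.0416), H2-T23, which encodes Qa-1, by 0.90 ± 0.25 (SE, adjusted p = 0.0177), and H2-Q6, whose reads its near-identical neighbours may share, by 1.32 ± 0.30 (SE, adjusted p = 0.00447). Without CD40 mouse 1 none of the 10 passed, and without mouse 2 there were 2. Of 9 MHC class II genes, 2 rose, H2-Ab1 (2106 and 2563 CPM against 1547, 1229, 1028, 1158 and 1043 CPM) by 0.96 ± 0.29 (SE, adjusted p = 0.0253) and the invariant chain Cd74 by 0.86 ± 0.30 (SE, adjusted p = 0.0465). With the lane as the unit 0 of these 2 passed, and in thinned cells 2 passed. The median of the class II list was 0.69, and neither gene kept its call without either of the CD40 mice.

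Of 27 interferon-gamma genes 3 rose, near the 11.2% of all genes, with a median of 0.41. They were Nos2, the GTPase Irgm2 at 1.03 ± 0.28 (SE, adjusted p = 0.0157) and Tap2, a subunit of the peptide transporter. Cd274, which encodes PD-L1, the ligand of the inhibitory receptor PD-1, rose from 298, 205, 213, 191 and 140.4 CPM to 433 and 378 CPM, a log2 change of 0.96 ± 0.30 (SE, adjusted p = 0.0314). Cxcl9, a chemokine that draws CXCR3-positive T cells, had 459.9 and 1233 CPM against 432 to 626 CPM and did not pass (log2 change 0.64 ± 0.46 SE, adjusted p = 0.333). The 2 CD40 mice differed, 1 inside and 1 above the isotype range.

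The receptor itself and its signalling list moved little. Cd40 stood at 53.8 and 68 CPM against 55.1, 62.9, 53.6, 42.4 and 41.3 CPM, with overlap and a log2 change of 0.27 ± 0.23 (SE, adjusted p = 0.414). Of 25 genes of CD40 and NF-kB signalling, 1 rose, the NF-kB inhibitor Tnip1 at 0.66 ± 0.13 (SE, adjusted p = 0.0018), and the median was 0.07. Of 7 costimulatory ligands 2 fell and none rose. Cd86 fell by 0.94 ± 0.21 (SE, adjusted p = 0.004) and Icosl, the ligand of the T cell receptor ICOS, by 1.52 ± 0.34 (SE, adjusted p = 0.00487). Of 14 inflammatory cytokines 1 rose and 2 fell. Il27 rose by 0.83 ± 0.23 (SE, adjusted p = 0.0175) and Il1b fell by 1.56 ± 0.39 (SE, adjusted p = 0.00853). Il12b, the IL-12 subunit of the classical CD40 response, was close to absent in macrophages, at 0.139 and 0.326 CPM against 0 to 2.28 CPM (log2 change -1.30 ± 1.48 SE, adjusted p = 0.566).

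Genes induced by type I interferon, the antiviral cytokine family, were lower in macrophages. Of 30 tested, 11 fell and none rose, the share of lowered genes being 10.9% over all genes, and the median was -0.70. Slfn4, a schlafen gene of myeloid cells, stood at 5.96 and 5.36 CPM in the CD40 mice. The isotype mice had 47.6, 81.2, 50.3, 33 and 53 CPM. No isotype mouse came near the CD40 mice, and Slfn4 fell by 3.23 ± 0.42 (SE, adjusted p = 4.47e-05) on the log2 scale. Isg20, a nuclease against viral RNA, fell by 2.31 ± 0.34 (SE, adjusted p = 1.34e-04), and the RNA-binding antiviral protein gene Ifit3 by 1.75 ± 0.37 (SE, adjusted p = 0.00296), with 31.4 and 24.6 CPM against 120.5, 108, 103, 60.3 and 77.9 CPM. Ifit3b, its near-identical neighbour with which reads may be shared, fell by 1.95 ± 0.32 (SE, adjusted p = 3.64e-04), and Isg15, a ubiquitin-like modifier, by 1.20 ± 0.33 (SE, adjusted p = 0.0162). The count was 5 without CD40 mouse 1 and 4 without mouse 2. The cluster of macrophages led by Rsad2, Ifit2, Cmpk2 and Ifit1 held 2.24% of the CD40 and 12.7% of the isotype macrophages.

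Interferon-stimulated genes are switched on through a short promoter element bound by STAT and IRF proteins, so the stretches upstream of 3 of the lowered genes are shown. They are the 250 bases before the transcription start from RefSeq on GRCm38.p6, which is the mm10 build of the deposited files, read 5′ to 3′ on the strand of the gene. Capitals mark matches to GAAANNGAAA, a core of that element, on either strand.
Ifit3, chr19:34583279-34583528, plus strand: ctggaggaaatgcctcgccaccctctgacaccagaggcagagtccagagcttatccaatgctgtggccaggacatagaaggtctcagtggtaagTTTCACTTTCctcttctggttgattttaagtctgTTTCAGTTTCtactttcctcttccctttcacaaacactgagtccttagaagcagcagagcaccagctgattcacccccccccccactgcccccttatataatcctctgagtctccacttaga
Ifit3b, chr19:34607707-34607956, plus strand: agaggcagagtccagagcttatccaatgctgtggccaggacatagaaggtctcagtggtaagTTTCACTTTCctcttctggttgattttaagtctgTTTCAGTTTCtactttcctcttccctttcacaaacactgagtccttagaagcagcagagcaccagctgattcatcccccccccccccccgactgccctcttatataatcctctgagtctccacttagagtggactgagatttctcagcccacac
Isg15, chr4:156200819-156201068, minus strand: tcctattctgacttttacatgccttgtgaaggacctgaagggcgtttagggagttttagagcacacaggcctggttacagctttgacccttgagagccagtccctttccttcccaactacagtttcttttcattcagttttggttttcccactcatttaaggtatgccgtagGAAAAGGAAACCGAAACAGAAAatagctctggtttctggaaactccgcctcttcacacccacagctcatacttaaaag
Ifit3 and Ifit3b each hold 2 separate matches, both on the opposite strand, and share most of the surrounding sequence. In Isg15 the 3 matches overlap one another and form 1 run of capitals. In windows of 300 bases, which add 50 bases after the start, 1079 of 27025 mouse genes (3.99%) hold a match. Of the 32 genes of the list 25 were matched to a promoter, and 13 of them (52%) hold one. By outcome, a match was found for 5 of the 11 genes that fell in macrophages and for 8 of the 14 that were not called. The windows of Slfn4, Isg20 and Ifit2 have no such letters.

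Of 22 chemokine genes 2 rose and 7 fell. Ccl2, the main ligand of CCR2 on monocytes, went from 4003, 4258, 4779, 2536 and 3288 CPM to 1417 and 1242 CPM, a log2 change of -1.50 ± 0.25 (SE, adjusted p = 5.16e-04), and Ccl12, its mouse relative, changed by -1.38 ± 0.25 (SE, adjusted p = 0.00109). Ccl24, an eotaxin of alternatively activated macrophages, fell by 1.83 ± 0.63 (SE, adjusted p = 0.0468). Ccl5, a chemokine abundant in T and NK cells, rose by 1.78 ± 0.34 (SE, adjusted p = 0.00159). Its level was over 10 times higher in CD8 T cells than here, and 8 of 12 lymphocyte genes rose in macrophages, with a summed level of 81.2 and 115 CPM against 30.1 to 74.8 CPM. The part of carried-over T cell transcripts in the Ccl5 value was not tested.

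Of 19 resident-like macrophage genes 5 fell and none rose, with a median of -1.01. The cluster led by Cd209f, Lyve1 and Retnla, with Folr2 and Cd163 among its leading genes, went the other way and held 22.5% of the CD40 and 11.2% of the isotype macrophages. Fcrls, an Fc receptor-like gene of resident macrophages and microglia, had 2.22 and 2.46 CPM against 14.1, 59.5, 32, 17.3 and 41 CPM and fell by 3.76 ± 0.64 (SE, adjusted p = 5.48e-04). The mannose receptor Mrc1 fell by 1.01 ± 0.19 (SE, adjusted p = 0.0012). The lectin Mgl2, outside that list and among the markers by which cDC2 were named, fell by 3.30 ± 0.66 (SE, adjusted p = 0.00203). Cd163, the haemoglobin scavenger receptor, had 16.5 and 6.3 CPM against 8.89, 46.9, 19.9, 18.4 and 19.3 CPM and did not pass (adjusted p = 0.123). Of 20 genes of lipid-associated macrophages 3 rose and 2 fell, near the 11.2% and 10.9% of all genes. Gpnmb, a glycoprotein of lysosome-rich macrophages, rose from 465, 205, 295, 310.1 and 398 CPM to 1308 and 1145 CPM, by 1.87 ± 0.34 (SE, adjusted p = 8.80e-04), and the protease Ctsd rose by 0.78 ± 0.17 (SE, adjusted p = 0.00307). Osteopontin (Spp1) and lipoprotein lipase (Lpl) fell by 1.15 ± 0.37 (SE, adjusted p = 0.0336) and 0.74 ± 0.21 (SE, adjusted p = 0.0195). Gpnmb is also a melanocyte gene. Of 8 melanoma genes it was the 1 that passed, and the log2 changes of the other 7 ran from -0.30 for Tyrp1 to 0.62 for Pmel.

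Of 25 inflammatory monocyte and macrophage genes 6 rose and 6 fell, with a median of 0.12. Among those that fell, Ly6c2, the surface marker of inflammatory monocytes, fell by 2.07 ± 0.59 (SE, adjusted p = 0.0186), and the proteoglycan Vcan by 2.32 ± 0.40 (SE, adjusted p = 6.62e-04). Ms4a4c, outside that list, fell by 2.14 ± 0.41 (SE, adjusted p = 0.0015). Ly6c2 and Vcan were also among the markers by which monocyte clusters were named. Cell cycle genes were lower as a group, with 26 of 29 lowered, none raised and a median of -0.87. With the lane as the unit 12 were lowered. The macrophage cluster led by Birc5, Hist1h1b and Mki67 held 5.07% of the CD40 and 13.2% of the isotype macrophages, and the part of this mix in the cell cycle values was not tested. The proliferation marker Mki67 had 37.6 and 49.1 CPM against 84, 104, 136, 139 and 145 CPM and fell by 1.49 ± 0.26 (SE, adjusted p = 7.22e-04), cyclin Ccnb2 by 1.17 ± 0.20 (SE, adjusted p = 6.84e-04) and the linker histone gene Hist1h1b by 2.77 ± 0.34 (SE, adjusted p = 2.14e-05). Leaving out CD40 mouse 1 left 5 of the list, and leaving out mouse 2 left 16. Arg1, the arginase of suppressive macrophages, stood at 345 and 153 CPM against 371 to 762 CPM and did not pass (log2 change -1.04 ± 0.44 SE, adjusted p = 0.097).

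**Figure D3:**
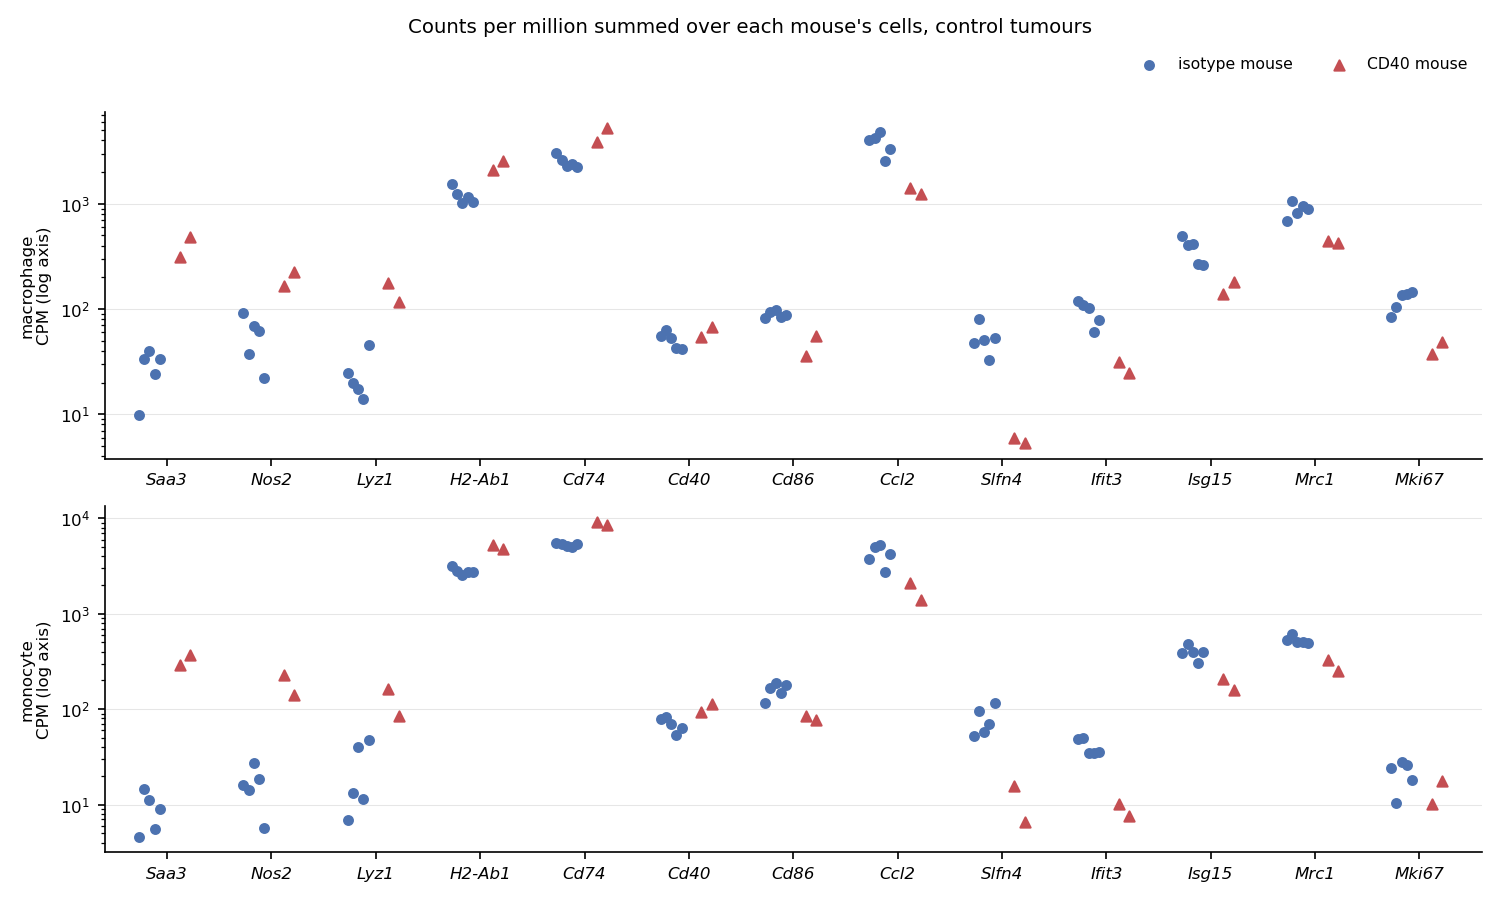
Level in CPM (log axis) of 13 genes in macrophages (upper panel) and monocytes (lower panel), 1 point per mouse, isotype (n = 5) and CD40 (n = 2). Saa3 lay above and Isg15 below every isotype mouse in both sets, while Cd40 overlapped between the groups in macrophages.

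In monocytes Saa3 and Nos2 rose again, and type I interferon genes fell again. Of 10009 genes 824 passed, or 8.23% (5.11% raised, 3.13% lowered), and 176 without CD40 mouse 2. Saa3 stood at 289 and 368 CPM against 4.6, 14.6, 11, 5.53 and 8.93 CPM, a log2 change of 5.08 ± 0.41 (SE, adjusted p = 1.11e-07). Nos2 had 225 and 142 CPM against 16.1, 14.2, 27.6, 18.7 and 5.68 CPM, a log2 change of 3.45 ± 0.48 (SE, adjusted p = 7.35e-05). Both genes were low in all isotype mice. Ly6i, a Ly6 family gene induced by interferon, rose by 2.35 ± 0.35 (SE, adjusted p = 1.85e-04), the formyl peptide receptor Fpr2 by 1.96 ± 0.26 (SE, adjusted p = 5.66e-05) and the phosphodiesterase Smpdl3b by 2.15 ± 0.26 (SE, adjusted p = 1.49e-05). S100a8, a calgranulin of neutrophils and monocytes, rose by 2.88 ± 0.67 (SE, adjusted p = 0.00871), although neutrophils hold over 10 times more of it. The cluster of monocytes led by Ly6i, Fpr2 and Nos2 held 30.0% of the CD40 and 10.9% of the isotype monocytes, and that led by Ccl24, Retnla and Ccl7 45.3% and 64.3%. Lymphocyte genes in monocytes summed to 62.2 CPM in CD40 mouse 1, inside the isotype range of 23.6 to 101 CPM, and to 584 CPM in mouse 2, and 8 of 11 rose.

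Antigen presentation and interferon-gamma genes changed in part. Of 9 class II genes 3 rose, led by H2-Ab1, with 5255 and 4811 CPM against 3140, 2791, 2578, 2766 and 2752 CPM (log2 change 0.84 ± 0.16 SE, adjusted p = 0.00223), and Cd74 (log2 change 0.74 ± 0.17 SE, adjusted p = 0.00885). With the lane as the unit 0 of these 3 passed, and in thinned cells 3 passed. Of 10 class I genes 4 rose, and H2-Q6 at the largest value of the list, 2.28 ± 0.27 (SE, adjusted p = 1.33e-05). Of 27 interferon-gamma genes 4 rose, among them the GTPase Iigp1 at 1.31 ± 0.31 (SE, adjusted p = 0.00911). Of 25 CD40 and NF-kB genes 3 rose: Tnip1 by 1.13 ± 0.18 (SE, adjusted p = 2.61e-04) and the NF-kB subunits Relb by 0.73 ± 0.21 (SE, adjusted p = 0.0376) and Rela by 0.69 ± 0.14 (SE, adjusted p = 0.00322). Cd40 itself was at 93.3 and 114 CPM, above all isotype mice at 78.3, 81.8, 70.5, 53.2 and 64.1 CPM, but did not pass (log2 change 0.60 ± 0.21 SE, adjusted p = 0.0806). Cd86 fell by 1.01 ± 0.24 (SE, adjusted p = 0.0125).

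Type I interferon genes were lower here too, 13 of 30 with none raised and a median of -0.82, against 3.13% of all genes. Without CD40 mouse 2 none of them passed. Slfn4 had 15.7 and 6.56 CPM against 51.8, 96.4, 57.9, 70.2 and 116 CPM and fell by 3.02 ± 0.48 (SE, adjusted p = 3.40e-04). Ifit3 fell by 2.24 ± 0.40 (SE, adjusted p = 0.0012) and Ifit2 by 1.69 ± 0.40 (SE, adjusted p = 0.0112), and Isg20 fell past the threshold as well. Isg15 had 205 and 159 CPM against 391, 482, 396, 306 and 394 CPM and fell by 1.12 ± 0.23 (SE, adjusted p = 0.00325), so the groups did not overlap. Ccl2 fell by 1.28 ± 0.33 (SE, adjusted p = 0.0179), Spp1 by 1.73 ± 0.47 (SE, adjusted p = 0.0263), Mrc1 by 0.89 ± 0.22 (SE, adjusted p = 0.0156), the growth factor gene Igf1 by 1.70 ± 0.42 (SE, adjusted p = 0.0144) and the tetraspanin Cd63 by 1.09 ± 0.17 (SE, adjusted p = 2.98e-04). Of 28 cell cycle genes 0 passed in monocytes with edgeR or DESeq2 (median -0.15), and 2 and 1 had an unadjusted p under 0.05. Mki67 was at 10.2 and 17.8 CPM against 10.3 to 28 CPM, Arg1 at 874 and 413 CPM against 234 to 569 CPM, Cd274 at 312 and 318 CPM against 149 to 270.5 CPM and Cxcl9 at 770.1 and 1543 CPM against 455 to 816 CPM, and none of these 4 passed. Il12b was at 3.69 and 0 CPM against 0 to 2.3 CPM and Cd163 at 0 and 0 CPM against 1.15 to 4.64 CPM, both near or at 0.

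Conventional dendritic cells, with cDC1, cDC2 and mature cells joined, had few calls, 226 of 9836 genes or 2.3% (1.53% raised, 0.773% lowered, 30.7% without overlap between mice), 70 without CD40 mouse 1 and 48 without mouse 2. The joined set mixes its 3 types in other proportions in the 2 groups. Mature cells, whose leading genes include Il12b, were 10 of 76 and 39 of 132 cells in the CD40 mice. In the isotype mice they were 102 of 209, 206 of 606, 109 of 238, 144 of 389 and 230 of 603. The part of this mix in the values below was not tested. The cells carried fewer transcripts of type I interferon genes, and Cd40, Il12b and Cd86 did not rise. Of 29 type I genes 7 fell and none rose, with a median of -1.17. Isg15 had 77.1 and 82.1 CPM against 302, 393, 369, 233 and 328 CPM and fell by 2.02 ± 0.34 (SE, adjusted p = 0.00118). Irf7, the factor that amplifies type I interferon, fell by 2.29 ± 0.42 (SE, adjusted p = 0.00259), with 38.6 and 21.3 CPM against 95.8, 157, 105, 124 and 162 CPM, and Slfn5 by 1.61 ± 0.32 (SE, adjusted p = 0.00609). Within cDC1 alone Irf7 fell by 2.84 ± 0.49 (SE, adjusted p = 0.00172) and Isg15 by 2.46 ± 0.46 (SE, adjusted p = 0.00414).

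Of 25 CD40 and NF-kB genes 0 passed with edgeR (median -0.16), where 6 had an unadjusted p under 0.05, and 1 fell with DESeq2. Of 7 costimulatory ligands Cd86 passed. It had 96.4 and 89.7 CPM against 236, 185, 232, 205 and 179.6 CPM and fell by 1.17 ± 0.22 (SE, adjusted p = 0.00393). Il12b stood at 15.4 and 129 CPM against 109, 100.3, 161, 34.4 and 147 CPM, with 1 CD40 mouse below and 1 within the isotype range (log2 change -0.31 ± 0.70 SE, adjusted p = 0.9). Cd40 was at 73.3 and 103 CPM against 128, 96.3, 113, 74.8 and 113 CPM (adjusted p = 0.882), H2-Ab1 at 6501 and 4818 CPM against 4131 to 5481 CPM (adjusted p = 0.697) and Cd274 at 108 and 181 CPM against 177 to 266 CPM (adjusted p = 0.341). Cxcl9, at 447 and 423 CPM against 274 to 541 CPM, and Nos2, at 3.86 and 15.2 CPM against 2.08 to 49.4 CPM, did not pass either. Of the class II list H2-Ob, part of the peptide-loading regulator H2-O, rose by 0.91 ± 0.22 (SE, adjusted p = 0.0287). In cDC2 alone 0 of 9 class II genes rose and 1 fell, with a median of -0.24. In cDC1 alone 1 rose and 0 fell, with a median of 0.14. Il1b fell by 1.15 ± 0.29 (SE, adjusted p = 0.0307).

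The heat-shock genes Hspa1a and Hspa1b, near-identical copies of Hsp70, were higher in dendritic cells. Hspa1b had 532 and 199 CPM against 56.1, 38.7, 57, 24.8 and 35.3 CPM and rose by 3.07 ± 0.36 (SE, adjusted p = 1.37e-05), and Hspa1a rose by 2.54 ± 0.35 (SE, adjusted p = 1.09e-04). In cDC1 alone Hspa1b rose by 3.31 ± 0.39 (SE, adjusted p = 1.53e-05). These genes also respond to tissue digestion, and the list of heat-shock and dissociation genes had 5 of 20 raised. In monocytes Hspa1b rose by 1.90 ± 0.37 (SE, adjusted p = 0.00213), which was not so with finer clusters. In the joined dendritic cells Saa3 rose by 5.62 ± 0.68 (SE, adjusted p = 1.70e-05) and Hcst, the signalling adaptor DAP10, by 1.81 ± 0.21 (SE, adjusted p = 1.28e-05). The part of carried-over macrophage transcripts in the Saa3 value, and in the Ccl2 and Arg1 values that follow, was not tested. Ccl2 fell by 2.39 ± 0.38 (SE, adjusted p = 5.68e-04), Arg1 by 3.25 ± 0.73 (SE, adjusted p = 0.0162), the cDC1 integrin Itgae by 1.18 ± 0.25 (SE, adjusted p = 0.0111) and Mgl2 by 3.19 ± 0.82 (SE, adjusted p = 0.0393).

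In cDC2, 174 of 5546 genes passed, or 3.14% (2.04% raised, 1.1% lowered), and 17 without CD40 mouse 2. Ms4a6d had 22.1 and 19.3 CPM against 307, 274, 219.6, 259 and 191 CPM and fell by 3.58 ± 0.54 (SE, adjusted p = 3.41e-04). Mgl2, one of the markers that named this class, fell by 3.65 ± 0.57 (SE, adjusted p = 4.60e-04) and Ccl7, another CCR2 ligand, by 3.80 ± 0.68 (SE, adjusted p = 0.00191). Of 25 cell cycle genes 9 rose in these 39 and 37 cells, 5 of them also with the lane as the unit, with the centromere protein Cenpf at 2.03 ± 0.47 (SE, adjusted p = 0.0169) and the ubiquitin ligase Ube2c at 2.03 ± 0.38 (SE, adjusted p = 0.00281). In thinned cells 3 of the 9 could be tested, and Ube2c passed. Cenpf had 254 and 199.7 CPM against 69.5, 27.7, 63.2, 38.7 and 85.9 CPM, without overlap.

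CD8 T cells changed in many genes. Of 9526 genes 3989 passed, or 41.9% (19.6% raised, 22.3% lowered), and 1444 without CD40 mouse 2. After CD40 they carried more transcripts of stem-like and naive genes and of interferon-gamma genes, and fewer of the cell cycle, of glycolysis and of some granzymes. The class joins 2 clusters that the groups filled differently, given here with the cells of a group's mice pooled. Of the CD40 cells 1950 came from mouse 1 and 6355 from mouse 2. The cluster led by Ccl5, Gzmk and Cd8b1 held 84.8% of the CD40 CD8 T cells with a median of 1080 UMIs and 21.3% of the isotype ones with 1090 UMIs. The cluster led by Gzmf, Ifng and Gzmb held 15.2% with 2960 UMIs and 78.7% with 4948 UMIs. A difference of the whole class thus includes the different mix, and its part in each gene was not tested.

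Of 16 stem-like and naive genes 12 rose and 1 fell, with a median of 1.23 where all genes had -0.04. The unnamed cluster led by Tcf7 and Satb1, with Lef1 among its leading genes, is not part of this class. It held 2.88% and 1.59% of all cells of the CD40 mice and 2.3% to 6.5% of those of the isotype mice. The part of leaving it out in the values of these genes was not tested. Tcf7, which encodes TCF1, the factor of self-renewing T cells, stood at 144 and 157 CPM. In the isotype mice it had 46.5, 45.7, 26.6, 34.9 and 35.8 CPM. The CD40 mice were about level with each other and above all isotype mice (log2 change 1.99 ± 0.36 SE, adjusted p = 2.30e-04). S1pr1, the receptor for exit from tissue, rose by 3.32 ± 0.28 (SE, adjusted p = 1.77e-07), with 108 and 133 CPM against 7.86, 25.4, 11.7, 11.2 and 10.9 CPM, and its activator Klf2 by 2.50 ± 0.27 (SE, adjusted p = 1.85e-06). Slamf6 rose by 1.85 ± 0.43 (SE, adjusted p = 0.00171), Klf3 by 3.27 ± 0.41 (SE, adjusted p = 7.24e-06) and Ripor2 by 2.78 ± 0.23 (SE, adjusted p = 1.29e-07). Ccr7, the lymph node homing receptor, fell by 1.49 ± 0.38 (SE, adjusted p = 0.00393). Ccr7 is also a leading gene of the mature dendritic cells. Of the list members past the threshold, 2 were over 10 times higher in another class. The part of carried-over transcripts was not tested. Thinning left out 35.3% and 39.8% of the CD8 T cells of the CD40 mice and 3.6% to 20.9% of those of the isotype mice. In the cells kept, a Tcf7 transcript was found in 14.0% and 13.8% of CD8 T cells against 3.59% to 5.60%, where macrophages had 0.264% and 0.163%.

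Effector genes split. Of 19 cytotoxic genes 6 rose and 10 fell. Gzmb, the main granzyme, had 1120 and 709 CPM against 1763, 1697, 2692, 2068 and 1850 CPM and fell by 1.14 ± 0.27 (SE, adjusted p = 0.00233). Perforin (Prf1) fell by 1.63 ± 0.25 (SE, adjusted p = 5.51e-05). Gzmc and Gzme, granzymes of strongly stimulated cells whose near-identical copies may share reads, fell by 2.87 ± 0.45 (SE, adjusted p = 6.09e-05) and 2.55 ± 0.51 (SE, adjusted p = 5.15e-04). Higher were Gzmk, the granzyme of memory-like cells, with 142 and 225 CPM against 55.7, 64.3, 46.8, 52.4 and 115 CPM (log2 change 1.47 ± 0.29 SE, adjusted p = 5.01e-04), Gzma (log2 change 1.78 ± 0.41 SE, adjusted p = 0.00164) and the death ligand Fasl (log2 change 1.13 ± 0.18 SE, adjusted p = 5.68e-05). Ifng was at 343 and 334 CPM against 453, 471, 544, 339 and 406 CPM, and did not pass (log2 change -0.38 ± 0.64 SE, adjusted p = 0.663). A Gzmb transcript was found in 45.0% and 30.8% of thinned cells against 52.8% to 58.5%, with 0.791% and 0.859% in macrophages.

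Of 16 inhibitory receptor and exhaustion genes 4 fell and 2 rose, where 22.3% of all genes fell and 19.6% rose. Pdcd1, which encodes PD-1, had 131 and 105 CPM against 253, 207, 216, 284 and 244 CPM and fell by 1.04 ± 0.17 (SE, adjusted p = 8.51e-05). Havcr2 (TIM-3) fell by 1.73 ± 0.26 (SE, adjusted p = 4.33e-05) and Cd244a (2B4) by 1.67 ± 0.30 (SE, adjusted p = 1.77e-04). Tox, the factor of the exhaustion programme, was at 226 and 327 CPM against 349.7, 257, 207, 351 and 295 CPM (adjusted p = 0.776), and Ctla4 at 347 and 432 CPM against 319, 284, 277, 357 and 254 CPM (adjusted p = 0.142). A Pdcd1 transcript was found in 9.43% and 9.51% of thinned cells against 18.4% to 24.5%, with 0.109% and 0.0585% in macrophages. Receptors of recent T cell receptor signalling differed among themselves. Tnfrsf4 (OX40) and Tnfrsf9 (4-1BB) fell by 2.23 ± 0.40 (SE, adjusted p = 1.69e-04) and 1.69 ± 0.26 (SE, adjusted p = 4.35e-05), whereas Nr4a1 and Cd69 rose by 1.13 ± 0.22 (SE, adjusted p = 4.10e-04) and 1.03 ± 0.20 (SE, adjusted p = 4.25e-04). Of 20 genes of the heat-shock and dissociation response, Fos, Junb and Ier2 among them, 9 rose and 4 fell in CD8 T cells, and the part of tissue handling in the CD8 T cell results was not tested.

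Of 29 cell cycle genes 27 fell and none rose, with a median of -1.41. Mki67 had 169 and 99.8 CPM against 362, 357, 342, 339.5 and 284 CPM and fell by 1.33 ± 0.28 (SE, adjusted p = 7.09e-04). Hist1h1b fell by 3.48 ± 0.38 (SE, adjusted p = 1.85e-06), the kinase Cdk1 by 1.83 ± 0.29 (SE, adjusted p = 5.57e-05) and thymidylate synthase Tyms by 1.85 ± 0.26 (SE, adjusted p = 1.86e-05). After thinning Mki67 was found in 10.8% and 6.64% of the cells kept against at least 16.4% in the isotype mice. Glycolysis genes were lower with them, 10 of 20 lowered and 1 raised. Lactate dehydrogenase Ldha had 582 and 385 CPM against 1062, 1128, 1242, 916 and 1010 CPM and fell by 1.15 ± 0.21 (SE, adjusted p = 2.04e-04), and triosephosphate isomerase Tpi1 by 1.16 ± 0.22 (SE, adjusted p = 3.75e-04). Pdk1, the kinase that holds back pyruvate dehydrogenase, rose by 0.45 ± 0.17 (SE, adjusted p = 0.0369).

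Interferon-gamma genes were higher. Of 25 interferon-gamma genes 15 rose, led by Iigp1 at 1.71 ± 0.35 (SE, adjusted p = 6.05e-04), the factor Irf1 at 1.53 ± 0.17 (SE, adjusted p = 1.88e-06) and the GTPase Igtp at 1.48 ± 0.21 (SE, adjusted p = 2.50e-05), while Irf8 fell by 1.33 ± 0.26 (SE, adjusted p = 5.08e-04). Irf1 had 231 and 365 CPM against 129.7, 96.5, 94.6, 87.3 and 107 CPM. All 10 MHC class I genes tested rose, with a median of 0.56, and 4 of them passed in thinned cells and 2 with the lane as the unit. H2-T23 rose by 0.93 ± 0.15 (SE, adjusted p = 8.51e-05). Of 25 type I interferon genes 5 rose and none fell, a share near the 19.6% raised over all genes, among them Irf9 at 1.30 ± 0.20 (SE, adjusted p = 4.60e-05). Cxcr3, the receptor of Cxcl9, had 97.3 and 131 CPM against 23.6, 39, 21.2, 7.68 and 25.8 CPM and rose by 2.40 ± 0.34 (SE, adjusted p = 2.52e-05), and Klrg1 rose by 1.48 ± 0.39 (SE, adjusted p = 0.00471). Of 17 chemokines 2 rose and 6 fell, but 5 of these 8 were over 10 times higher in another class, and the part of carried-over transcripts was not tested. Ccl5 rose from 1522, 2193, 1406, 1863 and 2721 CPM to 7528 and 15560 CPM (log2 change 2.57 ± 0.46 SE, adjusted p = 1.98e-04), whereas Xcl1, the chemokine that attracts cDC1, fell by 2.41 ± 0.71 (SE, adjusted p = 0.0101). Tnfaip3 (A20), a brake on NF-kB, rose by 1.19 ± 0.18 (SE, adjusted p = 3.45e-05) and the adaptor Hcst by 2.70 ± 0.24 (SE, adjusted p = 2.68e-07). The decoy receptor Il1r2 and neuritin Nrn1 fell by 2.62 ± 0.56 (SE, adjusted p = 9.52e-04) and 2.74 ± 0.47 (SE, adjusted p = 1.19e-04).

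**Figure D4:**
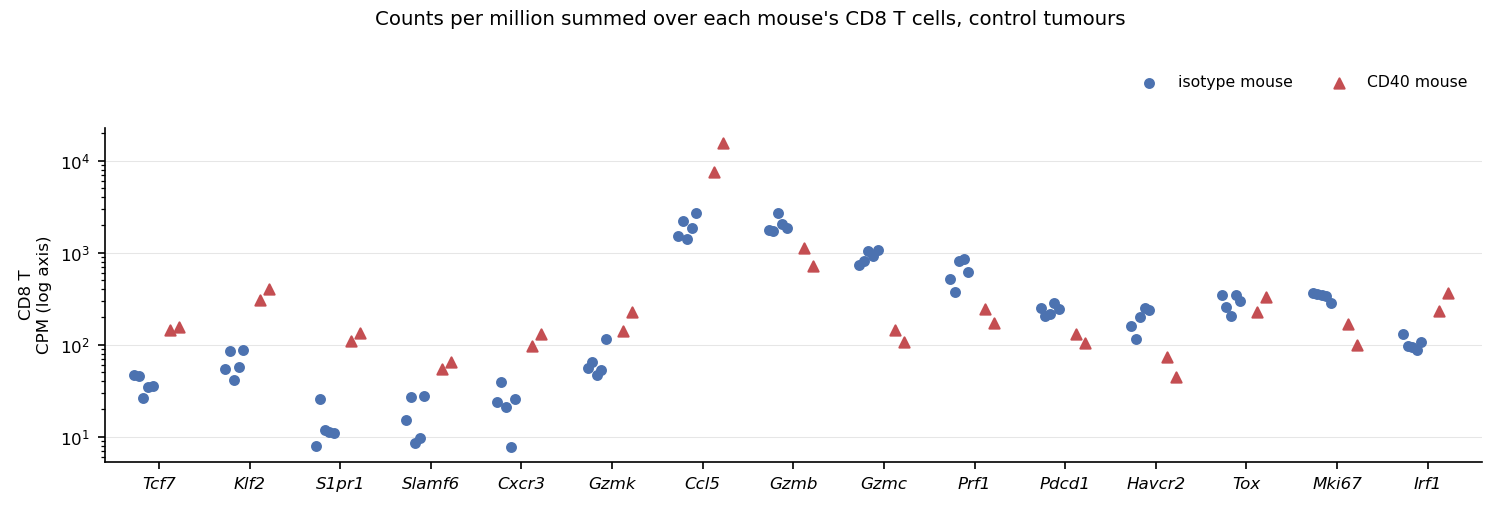
Level in CPM (log axis) of 15 genes in CD8 T cells, 1 point per mouse, isotype (n = 5) and CD40 (n = 2). Tcf7 and S1pr1 lay above and Pdcd1, Gzmb and Mki67 below every isotype mouse, while Tox overlapped.

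CD4 T cells without regulatory T cells could be tested in isotype mice 2, 4 and 5 only, which had 34 to 40 such cells. These cells held 48245, 68785 and 47412 UMIs in all, so the lowest isotype levels below rest on very few UMIs. Of 3550 genes 86 passed, or 2.42%, and 8 without CD40 mouse 2. Ifng had 719 and 1254 CPM against 22.6, 169 and 71.4 CPM and rose by 3.38 ± 0.69 (SE, adjusted p = 0.00963). The chemokines Ccl4, with 948 and 2659 CPM against 226, 118 and 23.8 CPM, and Ccl5 rose by 3.87 ± 0.75 (SE, adjusted p = 0.00575) and 2.16 ± 0.39 (SE, adjusted p = 0.0027), and Ccl3 by 4.79 ± 0.78 (SE, adjusted p = 0.002). The granule protein Nkg7 rose by 1.80 ± 0.25 (SE, adjusted p = 4.57e-04), the signalling regulator Rgs16 by 3.81 ± 0.68 (SE, adjusted p = 0.00258) and the chemokine receptor Cxcr6 by 0.92 ± 0.24 (SE, adjusted p = 0.0446). Gata3, the factor of T helper 2 cells, had 255 and 169.5 CPM against 722, 626 and 643 CPM and fell by 1.66 ± 0.28 (SE, adjusted p = 0.00245). CD8 transcripts in these cells summed to 383 and 480 CPM in the CD40 mice and 84.4 to 233 CPM in the isotype mice, and their part in the cytotoxic genes was not tested.

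Cd40lg, the ligand of CD40, stood at 74.2 and 136 CPM against 158, 101 and 71.4 CPM in CD4 T cells and did not pass (log2 change -0.01 ± 0.44 SE, adjusted p = 0.995). Gzmb had 204 and 239.6 CPM against 67.7, 659 and 23.8 CPM, Pdcd1 129.9 and 198 CPM against 22.6, 203 and 119 CPM, Tcf7 97.4 and 112 CPM against 226, 186 and 119 CPM, Tox 123 and 178 CPM against 113, 186 and 47.6 CPM and Mki67 30.1 and 22.4 CPM against 90.3, 50.7 and 0 CPM. None of these 5 passed.

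Regulatory T cells had fewer cell cycle transcripts, and 1 of their own genes passed. Of 5287 genes 831 passed, or 15.7% (8.06% raised, 7.66% lowered, 36.4% without overlap), and 395 and 115 without CD40 mouse 1 or 2. Of 19 regulatory T cell genes Capg, an actin-capping protein, fell by 0.87 ± 0.27 (SE, adjusted p = 0.0235) and none rose. Foxp3 was at 252 and 186 CPM against 124, 171, 150.1, 258 and 289.8 CPM (adjusted p = 0.908) and Ctla4 at 1476 and 1030 CPM against 1350, 1811, 1243, 2124 and 1479 CPM (adjusted p = 0.214). Cell cycle genes had 21 of 27 lowered and a median of -1.78. Mki67 had 115 and 119.5 CPM against 449, 417, 631, 639.8 and 408 CPM and fell by 2.11 ± 0.35 (SE, adjusted p = 7.33e-05), Cdk1 by 2.91 ± 0.53 (SE, adjusted p = 2.01e-04), Tyms by 2.71 ± 0.43 (SE, adjusted p = 3.32e-05) and Hist1h1b by 3.49 ± 0.36 (SE, adjusted p = 9.96e-09). No CD40 mouse reached an isotype mouse in Mki67.

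In regulatory T cells 5 of 12 cytotoxic genes rose, as did 5 of 19 effector and memory genes, and none fell; in thinned cells 2 and 1 passed. Of 13 stem-like and naive genes 4 rose and 1 fell. Ccl5 had 6561 and 10350 CPM against 746, 482, 762, 992 and 886 CPM and rose by 3.45 ± 0.30 (SE, adjusted p = 2.05e-10). Gzmk rose by 4.26 ± 0.50 (SE, adjusted p = 1.85e-07), Cxcr6 by 1.94 ± 0.24 (SE, adjusted p = 4.35e-07), Hcst by 2.58 ± 0.19 (SE, adjusted p = 2.25e-12), Klf2 by 1.63 ± 0.32 (SE, adjusted p = 4.86e-04), Tcf7 by 1.72 ± 0.40 (SE, adjusted p = 0.00262) and the stress-response factor Bhlhe40 by 1.25 ± 0.26 (SE, adjusted p = 8.41e-04). Cd8a and Cd8b1 summed to 555 and 721 CPM in these cells against 44.2 to 207 CPM, and of 20 heat-shock and dissociation genes 6 rose and 3 fell. The part of CD8 T cell transcripts and of tissue handling in the gains was not tested. Gzmb (1109 and 847 CPM against 469.6 to 883 CPM), Ifng (122 and 135 CPM against 37.1 to 266 CPM), Pdcd1 (115 and 112 CPM against 55.6 to 108 CPM) and Tox (168 and 255 CPM against 146 to 179.6 CPM) did not pass.

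NK cells had 248 of 6413 genes past the test, or 3.87% (2.56% raised, 1.31% lowered), and 59 and 78 without CD40 mouse 1 or 2. Klrg1, a receptor of late maturation, had 222 and 200.5 CPM against 39.5, 30.9, 57.8, 46.6 and 64.5 CPM and rose by 2.14 ± 0.24 (SE, adjusted p = 1.06e-06). Ly6c2, with 732 and 765 CPM against 148, 166, 79.5, 123 and 175 CPM, rose by 2.38 ± 0.20 (SE, adjusted p = 1.01e-08), Cxcr6 by 2.03 ± 0.34 (SE, adjusted p = 3.50e-04) and the calcium-binding S100a6 by 2.28 ± 0.24 (SE, adjusted p = 5.23e-07). Gzmk rose by 3.02 ± 0.47 (SE, adjusted p = 1.76e-04). The survival gene Bcl2 fell by 1.66 ± 0.29 (SE, adjusted p = 7.78e-04). Of 19 NK cell receptors 2 fell and none rose, with a median of -0.02, and none passed with the lane as the unit, where 4 had an unadjusted p under 0.05. The 2 were the activating receptors Klrk1 (NKG2D) and Ncr1 (NKp46), which fell by 0.84 ± 0.24 (SE, adjusted p = 0.0464) and 0.74 ± 0.19 (SE, adjusted p = 0.0252). Of 18 type I interferon genes 4 fell, among them Isg15 by 1.43 ± 0.38 (SE, adjusted p = 0.0298) and Ifit2 by 1.60 ± 0.45 (SE, adjusted p = 0.0389), and 2 of the 4 were over 10 times higher in another class. With the lane as the unit 1 of the 4 passed. In thinned cells 6 of the list could be tested, of which 0 passed with edgeR and 2 had an unadjusted p under 0.05. With DESeq2 none of the 18 passed while 10 had an unadjusted p under 0.05.

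Several NK values did not pass. Ifng was at 386 and 192 CPM against 247, 244, 231, 156 and 209.5 CPM, Gzmb at 2365 and 1334 CPM against 1260, 1235, 1308, 1156 and 1138 CPM and Mki67 at 76.4 and 143 CPM against 57.8 to 474 CPM. Pdcd1 (16.8 and 25.3 CPM against 0 to 16.4 CPM), Tcf7 (125 and 108 CPM against 139.9 to 231 CPM) and Tox (54 and 96 CPM against 36.1 to 95.4 CPM) did not pass either. The 3 Cd3 genes summed to 446 and 524 CPM in NK cells of CD40 mice and 101 to 314 CPM in those of isotype mice, and their part in the NK results was not tested.

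Neutrophils were tested against isotype mice 2, 4 and 5, and 47 of 2556 genes passed, or 1.84%. T cell genes led the raised ones: the 3 Cd3 genes summed to 507 and 519 CPM in the CD40 mice and 0 to 33.5 CPM in the isotype mice. With cells that held transcripts of another lineage left out, 0 of 2331 genes passed with edgeR, and 247 had an unadjusted p under 0.05. Among the lowered genes the chemokine Cxcl3 fell by 2.23 ± 0.49 (SE, adjusted p = 0.0239), thrombospondin Thbs1 by 2.30 ± 0.37 (SE, adjusted p = 0.00267) and G0s2, a lipase inhibitor that is also a neutrophil naming marker, by 2.54 ± 0.51 (SE, adjusted p = 0.0153). Of the 16 genes with the largest rises and falls in this set, 3 passed with the lane as the unit. G0s2 had 282 and 160.1 CPM against 782, 1235 and 1708 CPM.

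The control tumours were set beside B2m-null tumours, the most similar comparison, which shares no mouse with this one. In the same edgeR fit the CD40 effect differed between the 2 tumour types in 2038 of 12290 macrophage genes (16.6%), 1610 monocyte genes (16.1%), 362 dendritic cell genes (3.68%) and 1104 CD8 T cell genes (11.6%). The share was 1.57% in cDC1, where a single B2m-null CD40 mouse reached 20 cells and is assumed to vary like the other groups, 3.53% in cDC2, 2.4% in regulatory T cells, 2.01% in NK cells and 0.113% in CD4 T cells. The median CD40 effect over the type I interferon list in macrophages was -0.70 in control and 0.32 in B2m-null tumours, and 12 of 30 genes had a lower effect in control tumours and none a higher one. In monocytes the medians were -0.82 and 0.31, with 18 of 30 lower, and in joined dendritic cells -1.17 and 0.16, with 8 of 29 lower. Within cDC1 alone the medians were -1.35 and -1.37, with 0 of 28 lower, but the B2m-null value rests on 1 CD40 mouse with 23 cells. Within cDC2, with 2 B2m-null CD40 mice, they were -1.06 and 0.08, with 5 of 28 lower. Isg15 in monocytes changed by -1.12 in control and 1.06 in B2m-null tumours. The clusters of a class were filled differently in the 2 tumour types. The monocyte cluster led by Ly6i held 4.68% of isotype and 63.3% of CD40 monocytes in B2m-null tumours, against 10.9% and 30.0% in control tumours. For the macrophage cluster led by Rsad2 the values were 4.54% and 5.26% against 12.7% and 2.24%. The part of this mix in the differences was not tested. Interferon-gamma genes also had a lower CD40 effect in control tumours, with medians of 0.34 and 1.20 in monocytes and 11 of 27 genes past the test of the difference.

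In CD8 T cells 7 of 29 cell cycle genes and 8 of 20 glycolysis genes had a lower effect in control tumours, with medians of -1.41 against -0.38 and -0.68 against 0.08. Of the stem-like list 3 of 16 had a higher effect, at 1.23 against 0.38. In macrophages 12 of 29 cell cycle genes had a lower effect, at -0.87 against 0.03. Resident-like macrophage genes were alike in sign, with medians of -1.01 and -1.30 and 1 of 19 past the test of the difference. Since the control CD40 effect rests on 1 pool, these differences cannot be told apart from differences of that pool.

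**Figure D5:**
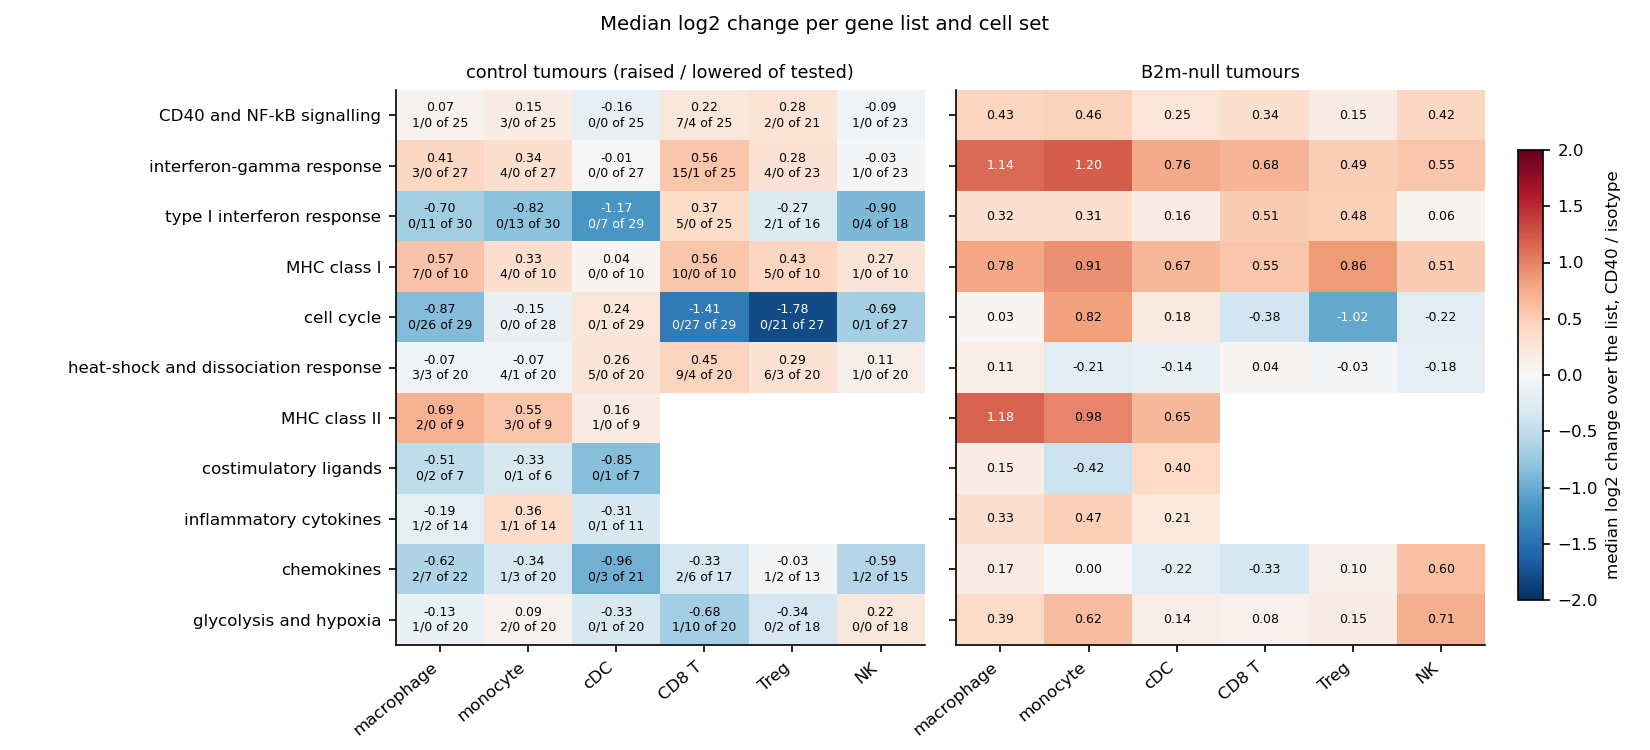
Median log2 change of CD40 against isotype per gene list (rows) and cell set (columns), in control tumours with the numbers raised and lowered of those tested (left) and in B2m-null tumours (right); colour runs from -2 to 2. The type I interferon row was below 0 in control macrophages, monocytes and joined dendritic cells, at -0.70, -0.82 and -1.17, and above 0 in their B2m-null counterparts.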

How the data were processed

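Immune cells of control and B2m-null B16 tumours were measured with droplet 3' RNA sequencing of single cells, and hashtag antibodies mark the mouse. The deposited files hold counts of UMIs per gene and barcode for 32285 genes; per the submitters' processing notes, Cell Ranger 3.0.0, bcl2fastq 2.20.0.422 and mm10 were used. The counts are not normalized, and any filter by the authors after barcode calling is not given in the sources used here.

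Barcodes with fewer than 200 genes or more than 10% mitochondrial UMIs were removed. Hashtag rows gave the mouse, and barcodes with 2 hashtags were removed as doublets; doublets within a mouse were not searched for. Cells were clustered with scanpy 1.11.5 (2000 variable genes, 40 components, 20 neighbours, Leiden resolution 1) and clusters were named from markers. UMIs were summed per mouse and cell set, with at least 20 cells, and tested with edgeR 4.0.16 (TMM, filterByExpr, quasi-likelihood test) over the mice of all 4 groups. The contrast was control CD40 against control isotype, and p-values were adjusted by Benjamini-Hochberg over the genes of a set. CPM levels use TMM-scaled totals, except summed marker levels. An SE is the absolute log2 change divided by the square root of F. A share is a percentage of named haematopoietic cells, compared by a two-sided exact permutation test over mice. Shares of cells with a transcript were taken after thinning to 1000 UMIs. The test was checked on simulated data: in the macrophage set 100% of genes changed 2-fold were called, in the CD8 T set 89% and in the NK set 55%. Of the calls there, 3.38%, 5.97% and 4.43% fell on unchanged genes. The simulation changed few genes, none of low level, and drew each mouse independently without a pool effect. Its rates therefore do not carry over to the measured calls.

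Named genes are members of 31 lists (up to 4 per direction past the threshold), the 8 largest rises and falls of a set among genes without overlap between mice and with at least 50 CPM in the higher group, and a fixed set given whatever the test said. Not every gene that this rule allows is printed. The members and lists were chosen with earlier results of these data known. Alternatives covered normalization, filters, tools, the unit, depth, clustering, lanes, pools and single mice. Mice of a group shared pools, so p-values measure the spread between mice within and between those few pools.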

Additional observations from a re-analysis of the deposited data

Results flagged for a closer look

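Among 54 groups of 5 isotype values examined, 5 held a mouse that lay far from the other 4 by Dixon's criterion, where chance flags about 1 in 20. Isotype mouse 1 had a CD8 T cell share of 15.42%, where the other isotype mice had 4.62% to 6.99%, and a regulatory T cell share of 3.771%, where they had 2.13% to 2.54%. In isotype mouse 2 macrophage Cd163 stood at 46.88 CPM, with 8.89 to 19.9 CPM in the others. Isotype mouse 3 had 2.279 CPM of Il12b in macrophages against 0 to 0.301 CPM, and 49.4 CPM of Nos2 in dendritic cells against 2.08 to 9.22 CPM.

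For 53 named genes and cell sets the CD40 effect differed between control and B2m-null tumours in edgeR's quasi-likelihood interaction test. The values that follow are the control effect minus the B2m-null effect on the log2 scale. In macrophages the effect was lower in control tumours for Isg20 (-2.805), Slfn4 (-2.655), Mgl2 (-2.446), Ly6c2 (-2.283), Isg15 (-2.261), Ms4a4c (-2.261), Ifit3b (-2.259), Il1b (-1.984), Ifit3 (-1.944), Ccl12 (-1.763), Ccl2 (-1.686), Cd86 (-1.596) and Ccnb2 (-1.577), and higher for Saa3 (1.758), Tnfaip2 (1.217) and Ctsd (1.062). In monocytes the effect was lower in control tumours for Ifit3 (-2.745), Isg15 (-2.19), Ly6i (-2.119), Isg20 (-2.078), Ifit2 (-1.996), Spp1 (-1.946), Slfn4 (-1.779), Cd86 (-1.512), Iigp1 (-1.43), Cd40 (-1.004) and Cd63 (-0.9923), and higher for Hspa1b (3.288) and Mrc1 (1.351). In joined conventional dendritic cells the effect was lower in control tumours for Isg15 (-2.928), Irf7 (-2.556), Cxcl9 (-1.826) and Cd86 (-1.561), and higher for Hspa1b (6.756), Hspa1a (5.111) and Hcst (1.889). In cDC1 alone the effect was higher in control tumours for Hspa1b (6.784), but the B2m-null CD40 arm of that fit is 1 mouse with 23 cells, assumed to vary like the other groups. In cDC2 alone the effect was lower in control tumours for Ms4a6d (-2.956). In CD8 T cells the effect was lower in control tumours for Tyms (-2.093), Hist1h1b (-1.829), Tnfrsf4 (-1.716), Cdk1 (-1.659), Ldha (-1.387), Prf1 (-1.372), Tpi1 (-1.151) and Gzmb (-1.074), and higher for Klf3 (2.126), S1pr1 (1.747), Hcst (1.53) and Nr4a1 (1.229). In regulatory T cells the effect was lower in control tumours for Tyms (-2.595), and higher for Hcst (1.108). In NK cells the effect was lower in control tumours for Ifng (-1.414). Hspa1b in joined conventional dendritic cells changed by 3.07 in control and -3.69 in B2m-null tumours (edgeR, adjusted p = 1.42e-05). Isg15 in macrophages changed by -1.20 in control and 1.06 in B2m-null tumours (edgeR, adjusted p = 0.00331). Cd40 in monocytes changed by 0.60 in control and 1.60 in B2m-null tumours (edgeR, adjusted p = 0.0187).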

How the results depend on the processing

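The counts of genes past the threshold were 2723 in macrophages, 824 in monocytes, 226 in joined dendritic cells, 127 in cDC1, 174 in cDC2, 3989 in CD8 T cells, 86 in CD4 T cells, 831 in regulatory T cells, 248 in NK cells and 47 in neutrophils. With the first CD40 lane only the count became 76 in joined dendritic cells, 24 in cDC1, 99 in cDC2, 543 in regulatory T cells, 147 in NK cells and 16 in neutrophils. With the second CD40 lane only the count became 46 in cDC1, 449 in regulatory T cells and 107 in neutrophils. With DESeq2 the count became 433 in regulatory T cells. With cells thinned to 1000 UMIs the count became 1418 in macrophages, 378 in monocytes, 74 in joined dendritic cells, 46 in cDC1, 57 in cDC2, 1435 in CD8 T cells, 54 in CD4 T cells, 156 in regulatory T cells and 139 in NK cells. Without cells that held transcripts of another lineage the count became 131 in joined dendritic cells, 40 in cDC1, 106 in cDC2 and 0 in neutrophils. With clusters at resolution 2 the count became 50 in cDC1 and 131 in CD4 T cells. With control-tumour mice alone in the fit the count became 215 in cDC1, 187 in CD4 T cells and 390 in NK cells. With isotype pool 1 only the count became 3 in CD4 T cells, 164 in NK cells and 1 in neutrophils. With isotype pool 2 only the count became 1396 in macrophages, 348 in monocytes, 79 in joined dendritic cells, 55 in cDC1, 52 in cDC2, 1925 in CD8 T cells, 32 in CD4 T cells, 236 in regulatory T cells, 68 in NK cells and 21 in neutrophils. With the lane as the unit and all cells, assigned to a mouse or not, the count became 1222 in macrophages, 246 in monocytes, 37 in joined dendritic cells, 52 in cDC1, 50 in cDC2, 1492 in CD8 T cells, 21 in CD4 T cells, 245 in regulatory T cells, 83 in NK cells and 6 in neutrophils. Without the filter on low counts the count became 358 in joined dendritic cells, 257 in cDC1, 286 in cDC2, 131 in CD4 T cells and 92 in neutrophils. With the offset for transcript length, chosen after seeing the data, the count became 20 in neutrophils. For the 0 neutrophil genes of edgeR without cells of another lineage, 247 had an unadjusted p under 0.05; DESeq2 was not run on those cells. Leaving out one mouse at a time gave ranges of 1023 to 2519 in macrophages, 176 to 764 in monocytes, 48 to 202 in joined dendritic cells, 40 to 122 in cDC1, 17 to 167 in cDC2, 1444 to 3781 in CD8 T cells, 8 to 86 in CD4 T cells, 115 to 833 in regulatory T cells, 59 to 235 in NK cells and 6 to 47 in neutrophils. The mice whose omission moved a count by over 1.5 times were, in macrophages CD40 mouse 1 (1023) and CD40 mouse 2 (1142), in monocytes CD40 mouse 2 (176), in joined dendritic cells CD40 mouse 1 (70) and CD40 mouse 2 (48), in cDC1 CD40 mouse 1 (49) and CD40 mouse 2 (40). For the other sets they were, in cDC2 CD40 mouse 1 (66) and CD40 mouse 2 (17), in CD8 T cells CD40 mouse 2 (1444), in CD4 T cells isotype mouse 2 (32), isotype mouse 4 (44), isotype mouse 5 (31), CD40 mouse 1 (23) and CD40 mouse 2 (8), in regulatory T cells CD40 mouse 1 (395) and CD40 mouse 2 (115), in NK cells CD40 mouse 1 (59) and CD40 mouse 2 (78), in neutrophils isotype mouse 2 (21), isotype mouse 4 (9), isotype mouse 5 (6), CD40 mouse 1 (31) and CD40 mouse 2 (10).

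Of the class shares, the CD4 T cell difference of 3.05 points became 2.44 by lane, 3.69 with a stricter cell filter, 3.98 at resolution 2, 3.41 and 2.71 with single lanes, and 1.8 to 4.3 without single mice. The NK difference of -1.24 points became -3.04 by lane and -3.17 to 0.685 without single mice, so that its sign depended on CD40 mouse 2. With the stricter cell filter the difference became -0.724 for plasmacytoid and -6.45 for mature dendritic cells, from -1.55 and -4.82. Mast cells or basophils went from -0.0739 to -0.14 by lane and 0.0038 with that filter. Genes whose CD40 effect differed between tumour types numbered, in thinned cells, 926 in macrophages, 695 in monocytes, 62 in joined dendritic cells, 13 in cDC1, 60 in cDC2, 314 in CD8 T cells, 53 in regulatory T cells and 71 in NK cells. Thinned to 2000 UMIs, the difference in the percentage of cells with a transcript was 15.1 for Tcf7, from 9.1, -12.8 for Gzmb, from -17.6, -17.6 for Pdcd1, from -12.7, -15.7 for Mki67, from -11.3, 15.4 for Saa3, from 11.9 and 10.6 for Nos2, from 6.13. Hspa1b in monocytes reversed to -0.066 with clusters at resolution 2 (edgeR, adjusted p = 0.945). The cause of these changes was not tested, except that fewer cells or mice entered several of the fits. No values were obtained for CD4 T cells and neutrophils under the stricter filter, for neutrophils in thinned cells, or for cDC2 with the second CD40 lane alone, which left too few cells. No paired analysis was possible because the 2 CD40 lanes are technical replicates of 1 pool and the replicate numbers in the labels do not join mice across the groups. Depth limits the rare classes: dendritic cells, CD4 T cells, regulatory T cells and neutrophils have few cells per mouse in at least 1 group. RLE size factors moved no list median by more than 0.0235 on the log2 scale.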
